A study of Mus musculus with 6 samples.

Results

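*Hmox1*, *Blvrb*, *Slc48a1*, *Hpx*, *Tfrc*, *Slc11a2*, *Fth1*, *Ftl1*, *Slc40a1* and *Cp* encode proteins that bring heme and iron into a cell, take heme apart, store iron and send it out again. These 10 genes were taken by symbol from a table of 55335 mouse genes, whatever their values, and all 10 had a row. The samples were bone marrow-derived macrophages (BMDMs), grown from marrow cells of WT genotype for 7 days with 25 ng/ml of M-CSF, the growth factor that turns marrow progenitors into macrophages. They were then co-cultured for 24 h with neutrophils that had been isolated by magnetic sorting from the injured spinal cord at 3 days post-injury (dpi). In 3 libraries the neutrophils came from *Cd177* WT mice and in 3 from *Cd177* KO mice, which lack a surface protein of neutrophils, and Ly6G-negative cells were sorted by FACS before RNA was taken. The methods state that all animals were male. Neither the labels nor the methods say whether the 3 libraries of a group came from separate cultures or separate mice, so the p-values below measure only the spread between these libraries, which may be technical.

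Macrophages recycle the iron of engulfed red blood cells. Heme freed in the lysosome is carried to the cytosol, heme oxygenase opens it into biliverdin, carbon monoxide and iron, and the iron is stored in ferritin or leaves through ferroportin. Cells also import iron bound to transferrin, and the iron regulatory proteins tie these routes together: in iron-poor cells they bind hairpins called iron-responsive elements (IREs), which blocks translation when the hairpin lies in the 5′ UTR and protects the mRNA when it lies in the 3′ UTR.

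These hairpins are shown because they group 4 of the 10 genes into those whose mRNA carries the element before the coding sequence and the gene that carries it after. The search used the unpaired C, 5 paired bases, the CAGTGN loop and 5 bases that pair back (G with T allowed), on the mRNA strand only, in GENCODE M21 transcripts (build GRCm38). Capitals mark the unpaired C and the loop. *Fth1*, *Ftl1* and *Slc40a1* held 1 match each in the 5′ UTR, all in exon 1, at chr19:9982732-9982760 (plus strand), chr7:45459779-45459807 (minus strand) and chr1:45925465-45925493 (minus strand).
Fth1: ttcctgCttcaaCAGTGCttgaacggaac
Ftl1: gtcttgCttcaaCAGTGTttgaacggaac
Slc40a1: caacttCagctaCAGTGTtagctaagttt
*Tfrc* held 4 matches, all in the 3′ UTR in exon 19 on the plus strand, at chr16:32631219-32631247, chr16:32631598-32631626, chr16:32631663-32631691 and chr16:32631710-32631738.
Tfrc 1: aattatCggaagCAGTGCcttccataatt
Tfrc 2: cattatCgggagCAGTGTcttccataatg
Tfrc 3: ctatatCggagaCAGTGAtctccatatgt
Tfrc 4: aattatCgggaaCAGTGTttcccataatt
The ferritin pair shared 26 of 29 bases, and the 4 *Tfrc* copies shared 18 to 25 of 29 with each other. The *Slc40a1* copy shared 13 of 29 with either ferritin and 13 to 16 of 29 with the *Tfrc* copies, so it was no closer to the ferritins. The search required the unpaired C and the CAGTG of the loop, so every pair shares those bases by design. The pattern was rare among the tested genes: 18 of 11300 (0.159%) held it in the first 250 bases of the 5′ UTR and 80 of 11320 (0.707%) in the first 2500 bases of the 3′ UTR, and *Tfrc* was the only gene in the second set with more than 1. The other 6 members had no match in the annotated UTRs searched. A match describes these letters and not a binding event.

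The deposited values were FPKM (fragments per kilobase of transcript, relative to the library's total), with column sums between 302532 and 340717. No counts were analysed here, but the spacing of low values implied about 17800000 to 20400000 fragments per library. That estimate is rough, since 37.2% to 40.4% of low values came within 0.1 of a whole number of fragments and chance alone would give 20%. *Cd177*, the gene deleted in the added neutrophils, read 0.544, 0.309 and 0.521 FPKM in WT replicates 1, 2 and 3 and 1.79, 1.84 and 2.28 FPKM in KO replicates 1, 2 and 3, so it was higher where the label says KO (log2 fold change 1.37, limma with Benjamini-Hochberg adjustment, adjusted p = 0.000827). It passed the filter of 0.5 FPKM only through the libraries labelled KO, so that p-value adds nothing to the 6 levels themselves. The direction of every difference below follows these labels, and the libraries are therefore called "labelled WT" and "labelled KO". Which exons the deletion removed is not given in the sources used here. All 10 listed macrophage markers were above that filter, with *Csf1r* at 232 to 284 FPKM labelled WT and 268 to 293 labelled KO, and *Adgre1* at 218 to 256 and 279 to 309. By limma at an adjusted p under 0.05, 2 of them were lower labelled KO, 2 higher, and 6 did not pass. Over all tested genes 10.5% were lower and 27.1% higher. The lower 2 were *Cd14*, at means of 1010 FPKM labelled WT and 99.4 labelled KO (log2 fold change -3.33), and *Fcgr1*, at 121 and 33.8 (-1.83). Neutrophil markers stood apart, with a summed level over 16 genes of 203 to 263 FPKM labelled WT and 559 to 575 labelled KO, and *Ly6g*, the gene of the marker gated against, at 0 in the 3 WT libraries and at 0.660, 0.547 and 0.403 FPKM in the KO libraries. Their part in the results below was not tested. Red cell markers were nearly absent: *Slc4a1*, *Rhag* and *Epb42* were listed at 0 in all 6 libraries, and no globin gene passed 0.325 FPKM (*Hbb-bs*, WT replicate 3).

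The members differed between the groups in both directions. By mean FPKM, *Hmox1* mRNA was 8.33-fold higher in the libraries labelled WT, both ferritin chains and the heme transporter *Slc48a1* were also higher there, and the iron importer *Tfrc* and the iron exporter *Slc40a1* were each more than 3 times higher in the libraries labelled KO (3.17-fold and 3.42-fold). *Blvrb*, *Slc11a2* and *Cp* did not pass the test, and *Hpx* was too low to test. Values were compared as log2(FPKM + 0.5) with limma over the 13367 genes that averaged 0.5 FPKM or more, two-sided, with Benjamini-Hochberg adjustment over all of them; every log2 fold change is on that scale, KO minus WT, and understates the change of low genes. Of the 10 members, 9 passed the filter, 4 were lower and 2 higher at an adjusted p under 0.05. Among all tested genes 10.5% were lower and 27.1% higher. In 5 members every KO library lay below every WT library and in 2 every KO library lay above, where 14.4% and 37.5% of tested genes did so. The median log2 fold change was -0.15 over the 9 members and 0.19 over all tested genes. That overall shift depends on the scaling: it was -0.01 after median-of-ratios scaling, under which 47.7% of called genes were higher, against 72.0% with FPKM as deposited. The plot of member levels by library shows these groups, and the plot of fold changes gives each difference on both scalings. In bulk RNA, a smaller number of expressing cells and less RNA per cell cannot be told apart.

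**Figure D1:**
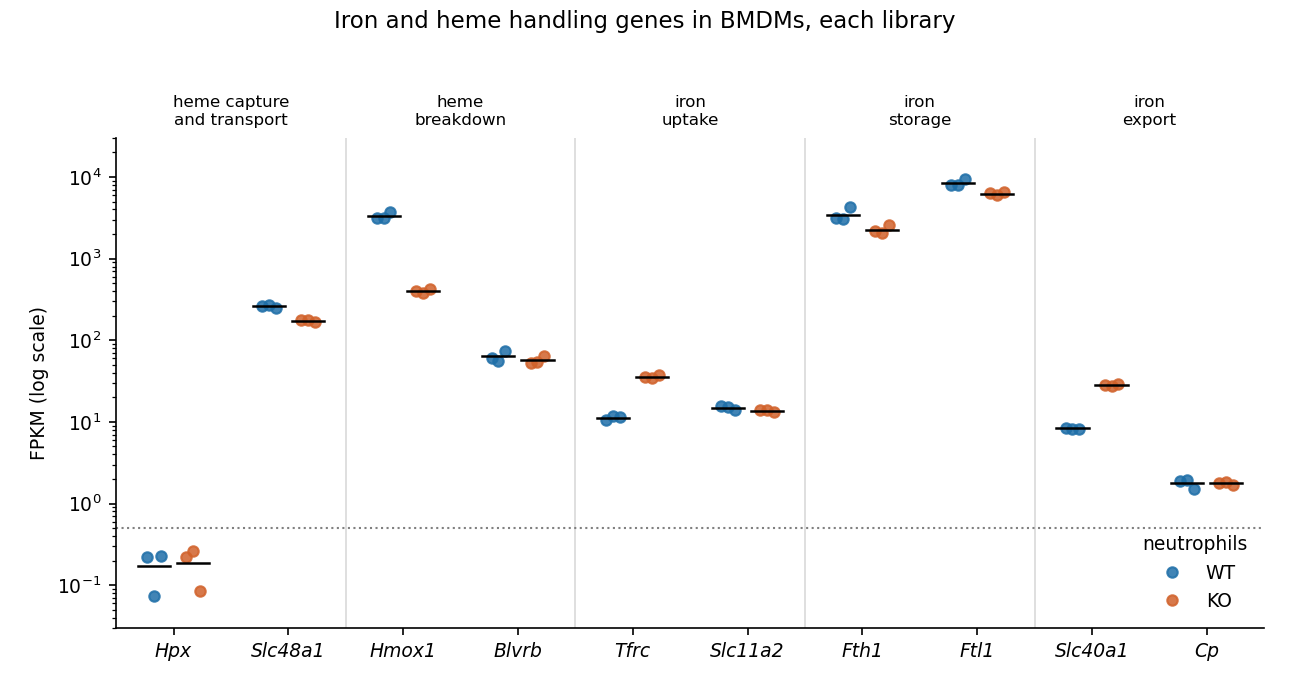
FPKM (log axis) of the 10 iron and heme genes, 1 point per library, blue for the 3 labelled WT and orange for the 3 labelled KO, with bars at group means and a dotted line at the filter of 0.5 FPKM. *Hmox1* sits at 3125 to 3695 labelled WT and 382 to 420 labelled KO, *Tfrc* and *Slc40a1* move the other way, and the *Hpx* points lie below the filter and overlap.

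Heme comes first. *Slc48a1* (chr15:97778520-97792692, plus strand, in GRCm38 as for every position here) encodes HRG1, which carries heme out of the phagolysosome. It was at 259, 269 and 250.1 FPKM in WT replicates 1, 2 and 3 and at 176, 175 and 166 FPKM in KO replicates 1, 2 and 3. All KO libraries lay below all WT libraries, and the values within each group were close together. The mean was 259 ± 9.37 FPKM (SD, n = 3) labelled WT and 172 ± 5.45 FPKM (SD, n = 3) labelled KO, a log2 fold change of -0.59 (SE 0.075) with limma's adjusted p = 0.00127. *Hpx* (chr7:105591613-105600137, minus strand) encodes hemopexin, the plasma protein that binds free heme and is made mainly by the liver. It read 0.221, 0.0735 and 0.228 FPKM in the WT libraries and 0.222, 0.262 and 0.0841 FPKM in the KO libraries. These values overlapped and were below the filter, so no difference was detectable at this depth.

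*Hmox1* (chr8:75093621-75100589, plus strand) encodes heme oxygenase 1, the inducible enzyme that opens the heme ring. Its level was 3159, 3125 and 3695 FPKM in WT replicates 1, 2 and 3 and 396, 382 and 420.1 FPKM in KO replicates 1, 2 and 3. The gap between the groups was many times the spread within either. The mean was 3327 ± 319.7 FPKM (SD, n = 3) against 399.5 ± 19.1 FPKM (SD, n = 3), a log2 fold change of -3.05 (SE 0.10; 95% interval -3.30 to -2.81; limma adjusted p = 3.85e-06), which ranked 86 among falls across the 13367 tested genes. By level, *Hmox1* ranked between 8 and 11 of all genes in the WT libraries and between 76 and 80 in the KO libraries. It took 1.03% to 1.08% of the FPKM sum in each WT library and 0.125% to 0.130% in each KO library. The call and its direction held under all 18 alternatives run, with log2 fold changes between -3.28 and -2.78.

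The enzymes around heme oxygenase 1 gave other values. *Blvrb* (chr7:27447978-27466144, plus strand) encodes biliverdin reductase B, which also acts as a flavin reductase. It was at 60.6, 55.6 and 73.7 FPKM in the WT libraries and 52.2, 53.8 and 64.0 FPKM in the KO libraries, and the groups overlapped. The log2 fold change was -0.15 with a 95% interval from -0.47 to 0.16 (limma adjusted p = 0.402). *Hmox1* over *Blvrb* within a library, a ratio that a single scaling factor per library leaves as it is, was 52.1, 56.2 and 50.1 in the WT libraries and 7.59, 7.10 and 6.57 in the KO libraries. *Hmox2*, the constitutive heme oxygenase, ran from 41.1 to 61.2 FPKM labelled WT and from 25.1 to 39.7 labelled KO and just missed the threshold (limma adjusted p = 0.0501). The *Hmox1* to *Hmox2* ratio was 76.8, 65.8 and 60.4 in the WT libraries and 15.8, 11.9 and 10.6 in the KO libraries. *Blvra*, the main biliverdin reductase, went the other way from *Hmox1*, from 17.5, 18.1 and 23.6 FPKM in the WT libraries to 39.2, 37.0 and 43.7 in the KO libraries (log2 fold change 1.01, limma adjusted p = 0.00152), and the *Blvrb* to *Blvra* ratio was 3.07 to 3.47 labelled WT and 1.33 to 1.46 labelled KO. *Hmox2* and *Blvra* were chosen after their values were seen.

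**Figure D2:**
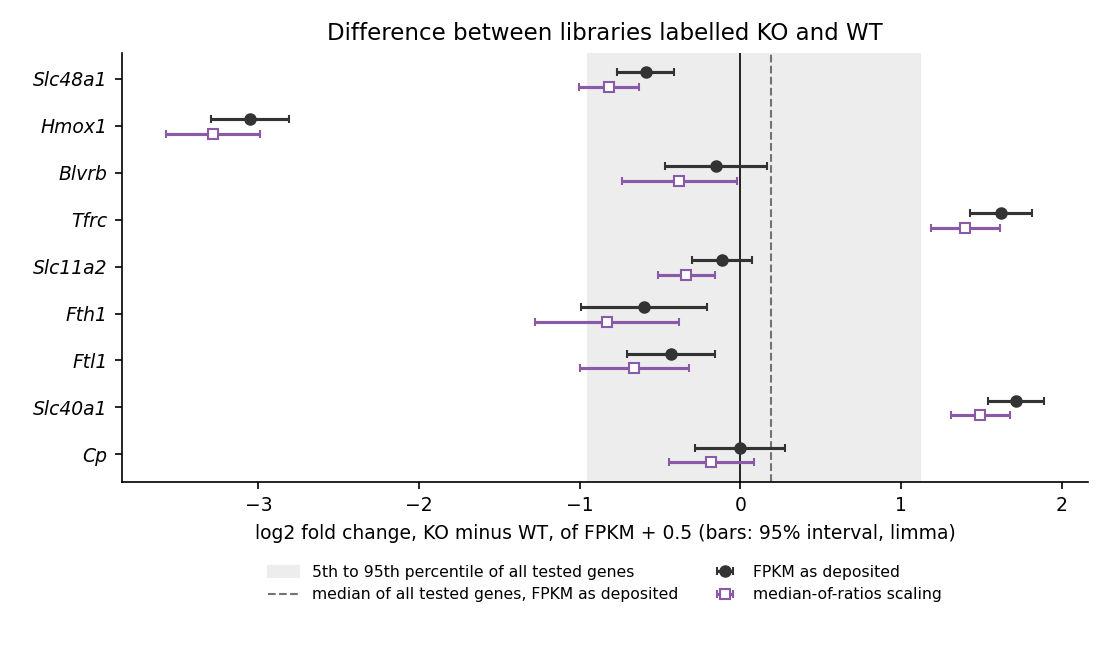
Log2 fold change (KO minus WT, of FPKM + 0.5) of the 9 tested members with 95% intervals from limma, as deposited (filled circles) and after median-of-ratios scaling (open squares). The grey band spans the 5th to 95th percentile of all tested genes (-0.95 to 1.12) and the dashed line marks their median (0.19). Both are for FPKM as deposited and so apply to the circles. For the squares the median of all tested genes was -0.01. *Hmox1* lies below the band, *Tfrc* and *Slc40a1* above it, and the ferritin means inside it.

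Among the genes of iron uptake, the receptor was higher in the libraries labelled KO. *Tfrc* (chr16:32608920-32632794, plus strand) encodes transferrin receptor 1, which brings transferrin-bound iron into the cell. It was at 10.6, 11.7 and 11.5 FPKM in WT replicates 1, 2 and 3 and at 35.4, 34.6 and 37.5 FPKM in KO replicates 1, 2 and 3. The lowest KO library was thus well above the highest WT library. The mean was 11.3 ± 0.577 FPKM labelled WT and 35.8 ± 1.49 labelled KO (SD of 3 libraries), and the log2 fold change was 1.62 (SE 0.081; 95% interval 1.43 to 1.82; limma adjusted p = 2.14e-05), ranked 212 among rises. All 18 alternatives kept the call, with log2 fold changes between 1.40 and 1.67.

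*Slc11a2* (chr15:100387898-100425072, minus strand) encodes DMT1, which moves ferrous iron across the endosomal membrane after transferrin has released it. It read 15.5, 15.2 and 14.0 FPKM in the WT libraries and 13.8, 13.9 and 13.4 FPKM in the KO libraries. The KO values were all below the WT values, though by little, and the difference did not pass (log2 fold change -0.11, 95% interval -0.30 to 0.075, limma adjusted p = 0.300). After median-of-ratios scaling it passed, at -0.34 with an adjusted p of 0.0151. Some *Slc11a2* transcripts are known to end in an IRE-like hairpin, which did not match the strict pattern searched here, and the gene-level table does not separate them from the others.

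Iron storage was the most abundant group. *Fth1* (chr19:9980598-9985098, plus strand) encodes the ferritin heavy chain, which oxidises ferrous iron. Its level was 3115, 3019.7 and 4229 FPKM in WT replicates 1, 2 and 3 and 2149, 2053 and 2590 FPKM in KO replicates 1, 2 and 3. No KO library reached a WT library, but replicate 3 of either group stood above the other two, and these were also the libraries with the highest FPKM sum of their group. The mean was 3454 ± 672 FPKM labelled WT and 2264 ± 286 labelled KO (SD of 3 libraries), and the log2 fold change was -0.60 (SE 0.17; 95% interval -0.99 to -0.21; limma adjusted p = 0.0285). *Ftl1* (chr7:45457944-45459884, minus strand) encodes the light chain, which helps the iron core form. It was at 8068, 7888 and 9439 FPKM in the WT libraries and 6306, 5973 and 6509 FPKM in the KO libraries, again without overlap. The mean was 8465 ± 848 FPKM against 6263 ± 271 FPKM (SD of 3 libraries), and the log2 fold change was -0.43 (SE 0.11; 95% interval -0.70 to -0.16; limma adjusted p = 0.0252). *Ftl1* ranked 2 by level among all genes in every WT library and 2 or 3 in the KO libraries.

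The ferritin calls depended on single libraries. Both were lost without WT replicate 1 (limma adjusted p = 0.0523 for *Fth1* and 0.0628 for *Ftl1*), without KO replicate 1 (0.103 and 0.107) and without KO replicate 2 (0.107 and 0.121), and that of *Ftl1* also without KO replicate 3 (0.0586). Quantile normalization shrank the differences to -0.28 and -0.13 (adjusted p = 0.257 and 0.422), and testing all 28101 genes with a value above 0 gave adjusted p-values of 0.228 and 0.549. Both were lower in KO under every alternative run. Reads of the light chain can also fall on near-identical copies: the pseudogenes *Ftl1-ps1* (125 to 194 FPKM) and *Ftl2-ps* (262 to 377 FPKM) held nearly all of a pseudogene sum that was 5.72% to 6.71% of the *Ftl1* row, against at most 0.035% for *Fth1*. With the pseudogene rows added the calls stayed (limma adjusted p = 0.0285 for *Fth1* and 0.0276 for *Ftl1*).

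The light to heavy chain ratio was 2.59, 2.61 and 2.23 in the WT libraries and 2.93, 2.91 and 2.51 in the KO libraries. These overlapped, and the log2 difference of 0.17 gave p = 0.3 in an exact two-sided permutation test, in which 3 against 3 cannot go below 0.1. *Hmox1*, *Fth1* and *Ftl1* together made up 4.69%, 4.64% and 5.10% of the FPKM sum in the WT libraries and 2.86%, 2.75% and 2.95% in the KO libraries. FPKM is scaled to a library's total fragments, so a change in such abundant genes can shift the values of the others. It also divides by transcript length, so these percentages are not shares of fragments. The size of such a shift was not tested.

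Iron export was led by *Slc40a1* (chr1:45908068-45926523, minus strand), which encodes ferroportin, the only known iron exporter of mammalian cells. It was at 8.45, 8.30 and 8.21 FPKM in WT replicates 1, 2 and 3 and at 28.3, 27.9 and 29.1 FPKM in KO replicates 1, 2 and 3. The libraries of a group were closer to each other than for any other member with a call. The mean was 8.32 ± 0.118 FPKM labelled WT and 28.4 ± 0.604 labelled KO (SD of 3 libraries), and the log2 fold change was 1.71 (SE 0.073; 95% interval 1.54 to 1.89; limma adjusted p = 1.13e-05), ranked 168 among rises, and all 18 alternatives kept it between 1.49 and 1.77. *Cp* (chr3:19957054-20009145, plus strand) encodes ceruloplasmin, a copper ferroxidase that oxidises iron as it leaves the cell. It read 1.87, 1.92 and 1.53 FPKM in the WT libraries and 1.79, 1.83 and 1.67 FPKM in the KO libraries. These overlapped, with a log2 fold change of -0.0027 and a 95% interval of -0.29 to 0.28 (limma adjusted p = 0.988), and its sign turned in 4 of 17 alternatives.

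Among the 3 genes whose 5′ UTR holds an IRE, both ferritins were lower and *Slc40a1* higher in the libraries labelled KO, and *Tfrc*, with its 3′ UTR elements, was higher. Relative to *Fth1* in the same library, 1000 times the *Tfrc* level was 3.42, 3.89 and 2.72 in the WT libraries and 16.5, 16.8 and 14.5 in the KO libraries. The same ratio for *Slc40a1* was 2.71, 2.75 and 1.94 in the WT libraries and 13.2, 13.6 and 11.2 in the KO libraries. Neither pair of groups overlapped. That follows from the levels already given, since all KO libraries lay above WT for *Tfrc* and *Slc40a1* and below WT for *Fth1*. The mRNAs of the binding proteins were compared as well. *Aco1*, which encodes IRP1, averaged 13.1 FPKM labelled WT and 17.5 labelled KO (log2 fold change 0.40, limma adjusted p = 0.0267), a call lost under all 4 other scalings (adjusted p = 0.205 after median-of-ratios scaling) and without KO replicate 1 or KO replicate 2 (0.0977 and 0.0913). *Ireb2*, which encodes IRP2, averaged 8.22 and 8.50 FPKM and did not pass (0.05, adjusted p = 0.773). *Fbxl5*, which marks IRP2 for degradation when iron is plentiful, fell from 9.40 to 9.74 FPKM in the WT libraries to 3.80 to 4.74 in the KO libraries (log2 fold change -1.09, limma adjusted p = 0.000344). All these values are mRNA levels, and no protein was measured in this table.

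**Figure D3:**
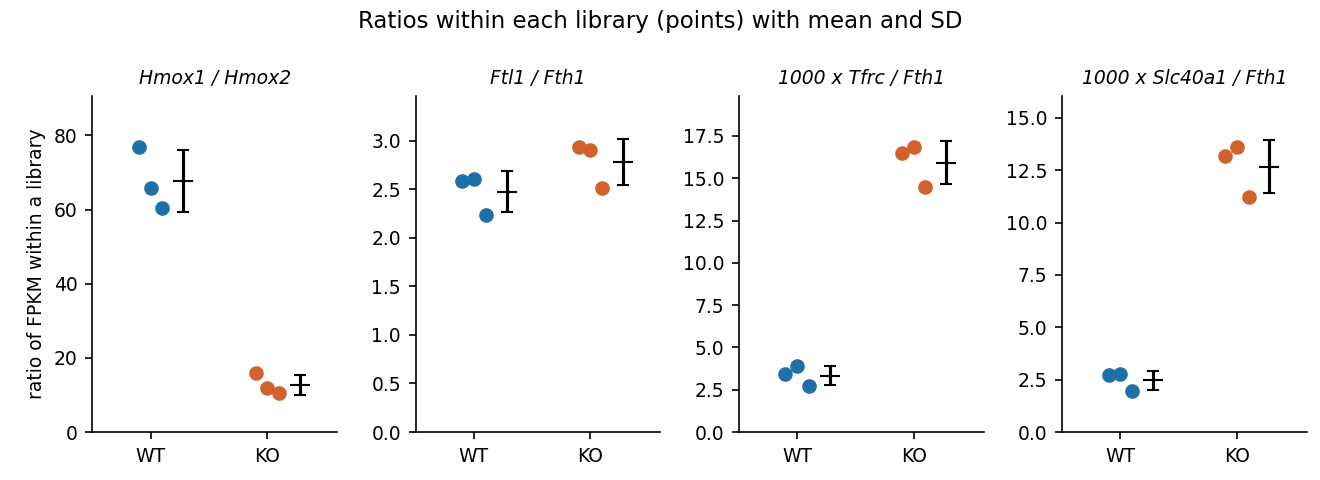
Ratios of FPKM between genes of the same library (linear axes from 0), 1 point per library, with mean and SD of the 3 libraries beside them. *Hmox1* over *Hmox2* is 60.4 to 76.8 labelled WT and 10.6 to 15.8 labelled KO, and *Ftl1* over *Fth1* overlaps between groups. *Tfrc* and *Slc40a1* over *Fth1* (times 1000) do not, which follows from the levels of each gene.

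The transcription factors known to act on *Hmox1*, ferritin and ferroportin genes were compared next. *Bach1*, a repressor of *Hmox1* that heme inactivates, was at 14.4, 16.1 and 12.1 FPKM in the WT libraries and 24.3, 23.6 and 21.5 in the KO libraries (log2 fold change 0.69, limma adjusted p = 0.00491). *Nfe2l2*, which encodes the activator NRF2, was at 45.2, 47.4 and 48.0 FPKM in the WT libraries and 64.9, 60.9 and 64.5 in the KO libraries (0.43, adjusted p = 0.00431), but did not pass after median-of-ratios scaling (adjusted p = 0.104). Both mRNAs were higher in the libraries where *Hmox1* was lower. *Keap1*, which holds NRF2 in check, averaged 14.5 FPKM labelled WT and 11.7 labelled KO (-0.28, adjusted p = 0.0716) and passed after median-of-ratios, upper-quartile or quantile scaling and without WT replicate 3. Of the small MAF partners listed, *Maff* and *Mafk* fell by 1.06 and 0.81 on the log2 scale (limma adjusted p = 0.000195 and 0.00154). *Mafg*, the most abundant of them, averaged 30.1 FPKM labelled WT and 25.8 labelled KO and did not pass (-0.21, limma adjusted p = 0.109). These partners were named after their values were seen. *Spic*, a factor of red pulp macrophages that recycle iron, averaged 2.46 FPKM labelled WT and 1.97 labelled KO and did not pass (-0.23, adjusted p = 0.361). Of 14 listed regulators, all tested, 5 were lower, 4 higher and 5 did not pass, where 10.5% of all tested genes were lower and 27.1% higher. The largest fall among them was that of *Hif1a*, the oxygen-sensing subunit of HIF-1, from 69.8 to 73.7 FPKM in the WT libraries to 27.6 to 30.3 in the KO libraries (-1.30, adjusted p = 4.21e-05), while *Epas1*, which encodes HIF-2α, rose from 1.71 to 2.86 FPKM in the WT libraries to 7.33 to 10.2 in the KO libraries (1.74, adjusted p = 0.000822).

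Of 83 further genes of iron and heme handling, listed by role, 72 passed the filter: 12 were lower, 20 higher and 40 did not pass, with a median log2 fold change of 0.07. That is beside the 10.5% lower and 27.1% higher among all tested genes. Genes of uptake and vesicle transport included the strongest changes in either direction, 3 lower and 6 higher of 16 tested. *Hp*, which encodes the haemoglobin-binding protein haptoglobin, was at 28.2, 23.9 and 31.5 FPKM in the WT libraries and 6.24, 6.47 and 8.96 in the KO libraries (log2 fold change -1.89, limma adjusted p = 0.000253). *Cd163*, the receptor that takes up haptoglobin bound to haemoglobin, moved the opposite way, from 0.166, 0.132 and 0.0820 FPKM to 3.21, 3.27 and 2.42 FPKM (2.46, adjusted p = 5.27e-05). It passed the filter only through the KO libraries, so that p-value adds nothing to the levels themselves. *Lcn2*, which binds the siderophores that carry iron and is also on the neutrophil marker list, rose from 2.66 to 3.35 FPKM labelled WT to 14.9 to 17.9 labelled KO (2.31, adjusted p = 2.16e-05), alongside the neutrophil marker sums given above. *Hfe*, which binds transferrin receptor 1, rose from 6.38 to 7.23 FPKM labelled WT to 23.2 to 25.9 labelled KO (1.79, adjusted p = 2.23e-05). *Slc39a8*, a zinc transporter that can also carry iron, rose from a mean of 0.544 to 1.88 FPKM (1.19, adjusted p = 0.000367). *Slc39a14*, a transporter of the same family, went the other way and fell by 0.58 on the log2 scale (adjusted p = 0.0102), and was named after its values were seen.

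**Figure D4:**
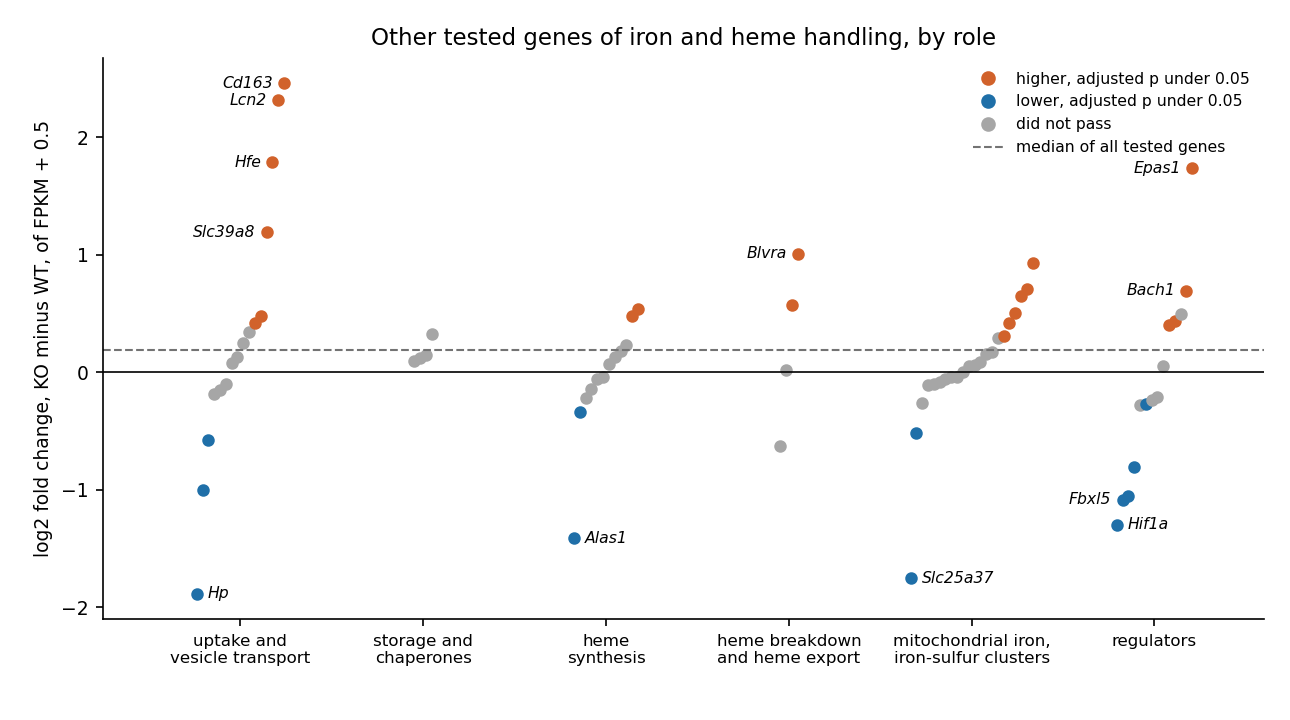
Log2 fold change (KO minus WT, of FPKM + 0.5) of the 72 tested genes outside the 10 members, 1 point per gene, ordered within each of 6 roles and coloured by the limma call at an adjusted p under 0.05. Uptake genes spread from *Hp* (-1.89) to *Cd163* (2.46) and regulators from *Hif1a* (-1.30) to *Epas1* (1.74), and none of the 4 tested storage and chaperone genes passed.

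The first enzyme of heme synthesis was lower in the libraries labelled KO. *Alas1*, the rate-limiting enzyme outside red cell precursors, was at 81.1, 74.5 and 85.5 FPKM in the WT libraries and 31.5, 27.1 and 30.9 in the KO libraries (log2 fold change -1.42, limma adjusted p = 8.24e-05). *Slc25a37*, or mitoferrin 1, which carries iron into mitochondria, was at 37.5, 42.3 and 29.7 FPKM in the WT libraries and 11.2, 10.8 and 9.20 in the KO libraries (-1.75, adjusted p = 0.000216). For both the groups lay far apart. The mitoferrin relative *Slc25a28* fell by 0.52 (limma adjusted p = 0.0109). *Fech*, the enzyme that inserts iron into the ring, was higher by 0.48 (limma adjusted p = 0.0456). It read 3.19, 2.11 and 2.18 FPKM in the WT libraries and 3.47, 3.76 and 3.65 in the KO libraries, so WT replicate 1 lay near the KO values. *Slc25a28* and *Fech* were named after their values were seen. Over heme synthesis as a whole, 2 of 12 tested genes were lower, 2 higher and 8 did not pass, and over mitochondrial iron and iron-sulfur cluster genes 2 of 22 were lower, 6 higher and 14 did not pass. The shares over all tested genes were 10.5% lower and 27.1% higher, and the mitochondrial list lay near them. *Ncoa4*, which takes ferritin to the lysosome, and the iron chaperones *Pcbp1* and *Pcbp2* did not pass, with log2 fold changes between 0.09 and 0.33. The upper value, that of *Ncoa4*, came from KO replicate 2 at 18.9 FPKM, while KO replicates 1 and 3 read 7.41 and 6.30 FPKM and the WT libraries 6.86 to 8.95 FPKM. No gene of the iron export and hepcidin list (*Hamp*, *Hamp2*, *Heph*, *Hephl1* and *Hjv*) reached the filter.

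The genes whose pattern over the 6 libraries lay nearest to that of the members with the largest changes were found by Euclidean distance of centred log2 values. For *Hmox1* they were *Ly6i* (distance 0.181), *Mmp10* (0.189) and *Phf11d* (0.199), and for *Slc40a1* they were *Sash3* (0.0850), *Arhgap19* (0.118) and *Ap1b1* (0.159). *Ly6i* ran from 3.26 to 4.17 FPKM in the WT libraries and was listed at 0 in KO replicates 2 and 3, and *Mmp10* ran from 5.90 to 6.87 FPKM labelled WT and 0.230 to 0.305 labelled KO. Both passed the filter only through the WT libraries, and with KO values below the added 0.5 their distance to *Hmox1* holds on the log2(FPKM + 0.5) scale and not for the FPKM ratio. *Sash3* came close in level as well, at 10.3 to 10.8 FPKM labelled WT and 33.3 to 37.1 labelled KO. The points compared are 6 libraries in 2 groups, so no p-value is given.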

How the data were processed

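The authors deposited FPKM per gene for 55335 mouse Ensembl genes in 6 libraries, and each of the 6 columns carried a sample's title (0 columns were unmatched). The submitters' processing notes name fastp 0.17.1, HISAT2 2.1.0, DESeq2 1.18.1 and R 3.4.3 without their roles. The read counter, annotation and genome build are not given in the sources used here. RNA reagent, library kit and sequencer differ between the labels and the methods. Microglia were not analysed here.

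Symbols, positions and UTRs came from GENCODE M21 (GRCm38), which named 55154 identifiers (99.7%). The test was limma's (version 3.58.1, R 4.3.3, trended eBayes, no covariate), two-sided, on log2(FPKM + 0.5), for the 13367 genes averaging 0.5 FPKM or more, with Benjamini-Hochberg adjustment over them. Fragments could not be recovered as whole numbers, so no count test was run. The fit was checked on simulated data. Python 3.11.15 (pandas 2.3.3, numpy 2.4.6, matplotlib 3.10.9) was used for the other steps.

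The members, gene lists (iron and heme roles, macrophage, neutrophil, erythroid, lymphocyte and spinal cord markers) and tests were chosen with earlier results of these data known. Named were all members, the 5 largest rises and 5 largest falls of the pathway lists at an adjusted p under 0.05 and a mean of at least 1 FPKM, *Aco1*, *Ireb2*, *Bach1*, *Nfe2l2*, *Keap1*, *Spic*, *Cd177*, *Ly6g*, *Adgre1*, *Csf1r* and *Hbb-bs*, and the 3 genes most like each of the 2 members with the largest changes. Others were named after their values were seen. The alternatives were other pseudocounts, filters, scalings, a robust variance, omission of each library, a block for replicate number, the study's threshold (fold above 2, unadjusted p under 0.05) and, for ferritin, adding pseudogene rows.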

Additional observations from a re-analysis of the deposited data

How the results depend on the processing

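Of the members, *Hmox1*, *Tfrc* and *Slc40a1* kept their call and direction under all 18 alternatives run for each, and *Slc48a1* under 17 of 18. The count of members called lower went from 4 to 5 with median-of-ratios scaling, to 2 without the filter, to 2 with quantile normalization and to 1 under the fold threshold of 2. It ranged from 2 to 4 with a library left out, with 2 without WT replicate 1, KO replicate 1 or KO replicate 2. The 2 members called higher stayed 2 in each of these. Pathway genes called higher went from 20 to 13 at a mean of at least 5 FPKM, 11 with median-of-ratios scaling, 12 with quantile normalization and 6 under the fold threshold, and ranged from 13 (without KO replicate 2) to 18 with a library left out. Pathway genes called lower went from 12 to 7 under the fold threshold and to 18 with median-of-ratios, 16 with upper-quartile and 15 with quantile scaling, so that with median-of-ratios scaling more were lower than higher. Over all genes, 3619 higher and 1408 lower became 2057 and 2259 with median-of-ratios scaling and 893 and 592 under the fold threshold. At a mean of at least 5 FPKM, where 6835 genes were tested, the higher calls became 1756. Higher and lower calls became 3180 and 1325 of 28101 genes without the filter, 2426 and 1928 with quantile normalization and 2878 and 1650 with upper-quartile scaling. With a library left out, 2442 to 4228 genes were higher and 1047 to 1717 lower. Signs that turned belonged to genes near 0: *Csf1r* was -0.12 with median-of-ratios scaling, *Ireb2* was -0.16 with median-of-ratios, -0.030 with upper-quartile and -0.085 with quantile scaling and -0.065 to 0.12 with a library left out, and *Cp* was 0.012 as TPM and -0.084 to 0.044 with a library left out. The replicate numbers were shared by the groups without a stated batch. Deviations of same-numbered libraries had r across genes of 0.12, 0.036 and 0.26 for numbers 1, 2 and 3. Unmatched pairs reached more for numbers 1 and 2, with r of 0.16 for WT 1 with KO 2 and 0.121 for WT 2 with KO 1. The other unmatched pairs ran from -0.23 to -0.13, so only number 3 stood out. With the number as a replicate block, 4253 genes were higher and 1681 lower, and the members stayed at 2 higher and 4 lower. The causes of these changes were not tested.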

Other observations

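Genes of other blood lineages were low, with a few exceptions that were named after their values were seen. Of 14 erythroid marker genes, 13 stayed below 0.5 FPKM in every library, and the one tested, *Epor*, which encodes the erythropoietin receptor, ran from 0.196 to 0.279 FPKM in the libraries labelled WT and from 1.83 to 2.30 FPKM in those labelled KO (log2 fold change 1.75, limma adjusted p = 0.000154). Of 10 lymphocyte markers 8 stayed below 0.5 FPKM in every library, among them the T cell genes *Cd3d*, *Cd3e* and *Cd3g* and the B cell gene *Ms4a1*. The B cell genes *Ighm* and *Cd79b* were higher in the libraries labelled KO, *Ighm* at 0.390, 0.293 and 0.0573 FPKM in WT replicates 1, 2 and 3 and 9.66, 9.43 and 10.5 FPKM in KO replicates 1, 2 and 3. *Epor* and *Ighm* passed the filter only through the libraries labelled KO, so the p-value of *Epor* adds nothing to its levels. Of 8 spinal cord markers 7 stayed below 0.5 FPKM, and *Mbp* ran from 4.47 to 5.79 FPKM labelled WT and 5.58 to 6.89 FPKM labelled KO, which did not pass (limma adjusted p = 0.186). Of the 16 neutrophil markers 13 were tested, with 11 higher and 1 (*Mmp8*) lower in the libraries labelled KO. Among the 11, *Cd177* and *Cxcr2* (*Cxcr2* means 0.382 FPKM labelled WT and 1.16 labelled KO) passed the filter only through the libraries labelled KO. Over all tested genes 27.1% were higher and 10.5% lower. The 10 macrophage markers were mixed beside the same shares: *Cd14* and *Fcgr1* were lower, *Adgre1* and *Mertk* higher, and 6 did not pass. The call of *Adgre1* was lost under 11 alternatives. The part of all these markers in the iron and heme results was not tested.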
